A study of Mus musculus with 4 samples.

Results

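The receptors that control adipocyte lipolysis were taken as a list of 9 genes: *Adrb1*, *Adrb3*, *Adra2a*, *Npr1*, *Npr3*, *Adora1*, *Ptger3*, *Hcar1* and *Hcar2*. They were chosen by function, with earlier results of these data known. A receptor was measured where a probe set of the array named only that gene, which held for 5 of the 9, namely *Npr1*, *Npr3*, *Ptger3*, *Hcar1* and *Hcar2*, among 19938 genes measured in all. Each of the 5 was read by 1 probe set. The beta and alpha adrenergic receptors and the adenosine A1 receptor on the list were not analysed here.

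Subcutaneous adipose tissue (SAT) of 16-week-old C57Bl6 mice was hybridized to 4 arrays, 1 for each group, with RNA pooled from 4 to 5 mice. The groups were AP2 Cre *Napepld* lox/lox mice on a high fat diet (cKO-HFD, diet D12492), *Napepld* lox/lox mice on that diet (WT-HFD), AP2 Cre *Napepld* lox/lox mice on the control diet (cKO-CT, diet AIN93M) and *Napepld* lox/lox mice on the control diet (WT-CT). *Napepld* encodes NAPE-PLD, an enzyme that makes N-acylethanolamines, lipids that include the endocannabinoid anandamide. All groups carry the floxed allele, and the WT mice lack Cre. Cre is driven by the promoter of *Fabp4* (also called AP2), which is active in adipocytes, while stromal and vascular cells of the tissue keep *Napepld*. The values are log2 levels made by RMA, a procedure that puts all arrays on a common scale, so a difference of 1 is a doubling. With 1 array per group there was no replicate, and no difference below has a test or an error.

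Lipolysis is the release of fatty acids and glycerol from the triglycerides stored in fat cells. Catecholamines act through beta-adrenergic receptors that raise cyclic AMP, which activates protein kinase A and, through it, hormone-sensitive lipase and the perilipin coat of the lipid droplet. Natriuretic peptides from the heart act through the receptor encoded by *Npr1*, which makes cyclic GMP, while the receptor encoded by *Npr3* lacks that activity and takes the peptides up for breakdown. Receptors coupled to inhibitory G proteins lower cyclic AMP, and among them are the EP3 receptor for prostaglandin E2 (*Ptger3*), the lactate receptor (*Hcar1*) and the receptor for beta-hydroxybutyrate and nicotinic acid (*Hcar2*).

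The promoters of both natriuretic peptide receptors are shown because these genes have opposed roles, and that of *Ptger3* because this receptor had the largest genotype ratio on HFD. Each window runs from 250 bases before to 50 after the start of the gene, read 5′ to 3′ on the strand of the gene, from the RefSeq annotation of GRCm38.p6. The windows lie at chr15:11907322-11907621 (minus strand) for *Npr3*, chr3:90465817-90466116 (minus strand) for *Npr1* and chr3:157566626-157566925 (plus strand) for *Ptger3*. Capitals mark matches to the GC box GGGCGG on either strand, and overlapping matches run together.
Npr3: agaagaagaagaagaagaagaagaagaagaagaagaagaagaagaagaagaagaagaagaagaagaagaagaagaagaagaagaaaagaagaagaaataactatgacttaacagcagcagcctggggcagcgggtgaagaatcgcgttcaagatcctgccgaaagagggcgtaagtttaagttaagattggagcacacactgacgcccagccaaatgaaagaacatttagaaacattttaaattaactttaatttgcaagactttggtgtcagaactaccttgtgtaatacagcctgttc
Npr1: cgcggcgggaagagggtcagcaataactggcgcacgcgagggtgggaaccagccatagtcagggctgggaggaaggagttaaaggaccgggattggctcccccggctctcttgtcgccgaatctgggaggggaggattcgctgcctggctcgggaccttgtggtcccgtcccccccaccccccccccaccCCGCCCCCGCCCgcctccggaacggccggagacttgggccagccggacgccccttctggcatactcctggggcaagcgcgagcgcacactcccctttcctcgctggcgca
Ptger3: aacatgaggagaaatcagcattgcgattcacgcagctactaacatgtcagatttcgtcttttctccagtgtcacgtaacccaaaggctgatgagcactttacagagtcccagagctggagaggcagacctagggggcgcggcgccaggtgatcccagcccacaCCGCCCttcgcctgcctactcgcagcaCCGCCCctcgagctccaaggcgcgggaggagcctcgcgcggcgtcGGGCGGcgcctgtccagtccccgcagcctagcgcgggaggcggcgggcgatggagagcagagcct

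The *Npr3* window begins with a run of the repeat gaa and had a GC content of 39%, against 69.7% for *Npr1* and 64% for *Ptger3*. The median over 32851 windows of this length was 52.7%, with 5th and 95th percentiles of 36.3% and 73.7%. The GC box stood in 35.7% of all windows, and matched 2 times in *Npr1*, 3 times in *Ptger3* and not in *Npr3*. The other motifs searched on both strands were the cyclic AMP response element TGACGTCA (1.79% of windows), the nuclear receptor hexamer AGGTCA (16.3%), the C/EBP site TTGCNNAA (10.8%) and the TATA box TATAAA (13.6%). None of these letters matched in the 3 windows. *Hcar1* had a GC content of 59.7% and no match to any of the 5 motifs. The chromosomes show *Hcar1* and *Hcar2* as neighbours, since both lie on chromosome 5 with 0 annotated genes between them.

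All 5 receptors were above background on all 4 arrays. Background was taken as the 95th percentile of 1027 odorant receptor (*Olfr*) genes, most of which were assumed to be silent in fat. It stood at 5.50 in cKO-HFD, 5.42 in WT-HFD, 5.28 in cKO-CT and 5.39 in WT-CT. No receptor passed a 1.5-fold difference (0.585 on the log2 scale) between the genotypes on either diet or between the diets in either genotype. The share of all genes past it in cKO-CT over WT-CT was 1.64% higher and 1.52% lower, and in cKO-HFD over WT-HFD 1.04% higher and 2.11% lower. In WT-HFD over WT-CT these shares were 3.16% and 2.67%, and in cKO-HFD over cKO-CT 1.82% and 2.17%. With shares of this size, a count of 0 among 5 receptors does not set them apart from all genes.

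**Figure D1:**
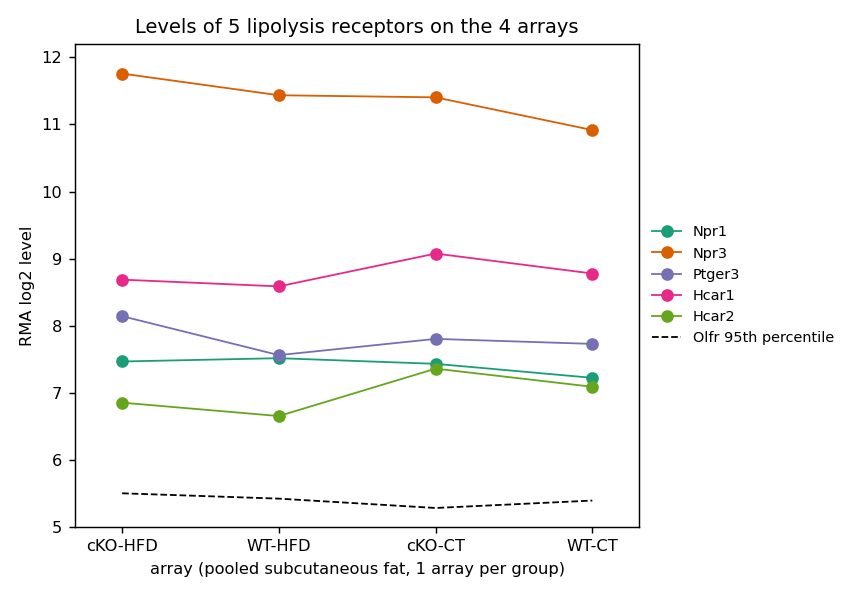
RMA log2 level (y axis) of 5 lipolysis receptors on 4 arrays of pooled SAT (x axis, 1 array per group). A dashed line gives background. *Npr3* is lowest in WT-CT (10.92) and highest in cKO-HFD (11.76), *Ptger3* stands apart in cKO-HFD (8.14), and *Hcar1* and *Hcar2* are highest in cKO-CT (9.07 and 7.36). Lines join the arrays of a gene, and levels of different genes are not compared.

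*Npr3*, the clearance receptor for natriuretic peptides, had a log2 level of 11.76 in cKO-HFD, 11.44 in WT-HFD, 11.40 in cKO-CT and 10.92 in WT-CT. Its level was highest with both the deletion and the HFD and lowest with neither, and the cKO-CT and WT-HFD arrays lay close together between them. By genotype, the log2 ratio was 0.49 on CT (cKO-CT over WT-CT, 1.40-fold) and 0.32 on HFD (cKO-HFD over WT-HFD, 1.25-fold). By diet, it was 0.52 in WT (WT-HFD over WT-CT, 1.43-fold) and 0.35 in cKO (cKO-HFD over cKO-CT, 1.28-fold). In the comparison of cKO-HFD with WT-CT, which was added after the values were seen, the log2 ratio was 0.84 (1.79-fold), and *Npr3* was the 1 receptor past 1.5-fold. In that comparison 3.36% of all genes were higher and 3.41% lower. The genotype ratio on HFD minus that on CT was -0.16.

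*Npr1*, the natriuretic peptide receptor that makes cyclic GMP, had a log2 level of 7.47 in cKO-HFD, 7.51 in WT-HFD, 7.43 in cKO-CT and 7.22 in WT-CT. The first 3 of these lay close together, and WT-CT lay below them. On CT the log2 ratio of cKO-CT over WT-CT was 0.21, and it was -0.05 for cKO-HFD over WT-HFD, 0.29 for WT-HFD over WT-CT, 0.03 for cKO-HFD over cKO-CT and 0.24 for cKO-HFD over WT-CT. The ratio of *Npr3* was thus above that of *Npr1* in every comparison, by 0.28 for cKO-CT over WT-CT, 0.37 for cKO-HFD over WT-HFD, 0.23 for WT-HFD over WT-CT, 0.32 for cKO-HFD over cKO-CT and 0.60 for cKO-HFD over WT-CT. The arrays are shared between these comparisons, so they do not count as 5 observations. *Npr2*, the receptor for C-type natriuretic peptide, had a log2 level of 7.91 in cKO-HFD, 7.98 in WT-HFD, 8.22 in cKO-CT and 7.89 in WT-CT. None of the 7 other natriuretic peptide genes listed, which include *Npr2*, the peptides and the proteases that process them, passed 1.5-fold in any comparison.

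Both natriuretic peptide receptors are also known from vascular cells, and markers of those cells were highest and lowest on the same arrays as *Npr3*. The summed level of 7 endothelial markers, all above background on all arrays, was 11.97 in cKO-HFD, 11.53 in WT-HFD, 11.75 in cKO-CT and 11.28 in WT-CT on the log2 scale. The order of the other two arrays differed from that of *Npr3*. The list had a median log2 ratio of 0.40 between the genotypes on CT and 0.41 on HFD, and all 7 were above 0 in cKO-HFD over WT-CT, 3 of them past 1.5-fold (*Cdh5*, *Pecam1* and *Tie1*), where 3.36% of all genes were higher by that size. The sum of 6 smooth muscle and pericyte markers was 11.69 in cKO-HFD, 11.45 in WT-HFD, 11.64 in cKO-CT and 10.63 in WT-CT. The sum of 7 adipocyte markers was 15.69 in cKO-HFD, 15.53 in WT-HFD, 15.55 in cKO-CT and 15.40 in WT-CT. It too was highest in cKO-HFD and lowest in WT-CT, so these extremes were not particular to the vascular markers. In cKO-HFD over WT-CT the adipocyte list had a median log2 ratio of 0.26. *Lep* was the 1 adipocyte marker past 1.5-fold there, at 1.82. The part of these cell types in the levels of *Npr3* was not tested. In whole tissue, fewer cells of a type and less RNA per cell cannot be told apart.

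*Ptger3*, the prostaglandin E2 receptor that lowers cyclic AMP, had a log2 level of 8.14 in cKO-HFD, 7.56 in WT-HFD, 7.80 in cKO-CT and 7.73 in WT-CT. The cKO-HFD array lay above the other three, and WT-HFD was the lowest. Its log2 ratio of 0.581 for cKO-HFD over WT-HFD lay just under 0.585, the size that was called. The ratio for cKO-CT over WT-CT was 0.07, and after cyclic loess, another scaling of the arrays, it was -0.01. By diet the ratio was -0.17 in WT (WT-HFD over WT-CT) and 0.34 in cKO (cKO-HFD over cKO-CT), and it was 0.41 when cKO-HFD was set against WT-CT. The genotype ratio on HFD minus that on CT was 0.51, the largest of the 5 receptors, and it was not tested.

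The HFD arrays differed in their content of other tissue. The summed log2 level of 8 skeletal muscle markers was 10.95 in cKO-HFD, 14.78 in WT-HFD, 13.25 in cKO-CT and 13.12 in WT-CT, so cKO-HFD held the least and WT-HFD the most, the opposite of *Ptger3*. The sum of 10 macrophage markers, all above background, was 12.16 in cKO-HFD, 12.59 in WT-HFD, 12.30 in cKO-CT and 11.77 in WT-CT. Other lists also differed between the HFD arrays. For cKO-HFD over WT-HFD the median log2 ratio was 0.41 for the endothelial markers and 0.37 for the smooth muscle and pericyte markers. It was -0.44 for 5 stromal progenitor markers. The part of any of these cell types in the ratio of *Ptger3*, or in any other ratio here that uses an HFD array, was not tested. Of the 8 other prostanoid receptors, *Ptgdr2*, a receptor for prostaglandin D2, was lower in cKO-CT than in WT-CT, with levels of 4.48 and 5.47 and a log2 ratio of -0.99. It was above background only in WT-CT, and set against the background level of cKO-CT, in place of the dimmer reading, the difference is at least 1.14-fold, under the size that was called.

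*Hcar1*, the lactate receptor, had a log2 level of 8.69 in cKO-HFD, 8.58 in WT-HFD, 9.07 in cKO-CT and 8.78 in WT-CT. Between the CT arrays its log2 ratio was 0.30 (cKO-CT over WT-CT), and it was 0.10 for cKO-HFD over WT-HFD, -0.19 for WT-HFD over WT-CT, -0.39 for cKO-HFD over cKO-CT and -0.09 for cKO-HFD over WT-CT. *Hcar2*, the receptor for beta-hydroxybutyrate and nicotinic acid, had a log2 level of 6.85 in cKO-HFD, 6.65 in WT-HFD, 7.36 in cKO-CT and 7.09 in WT-CT. The log2 ratio of *Hcar2* was 0.27 between the CT arrays (cKO-CT over WT-CT), 0.20 for cKO-HFD over WT-HFD, -0.44 for WT-HFD over WT-CT, -0.51 for cKO-HFD over cKO-CT and -0.24 for cKO-HFD over WT-CT. Both genes stood lowest in WT-HFD and highest in cKO-CT, and their ratios had the same sign in each comparison, with HFD below CT in both genotypes and cKO above WT on both diets. The comparisons share arrays, so these signs are not separate observations. The *Hcar1* ratio of 0.10 for cKO-HFD over WT-HFD was below the median absolute log2 ratio of all genes, 0.137. The genotype ratio on HFD minus that on CT was -0.20 for *Hcar1* and -0.07 for *Hcar2*. *Hcar2* is also known from macrophages and neutrophils. The macrophage sum and *Hcar2* were both higher in cKO-CT than in WT-CT, while in WT-HFD the macrophage sum was at its highest and *Hcar2* at its lowest. Of 6 neutrophil markers, 5 (*S100a8*, *S100a9*, *Ly6g*, *Csf3r* and *Cxcr2*) were below background on all arrays. The part of either cell type in the levels of *Hcar2* was not tested.

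**Figure D2:**
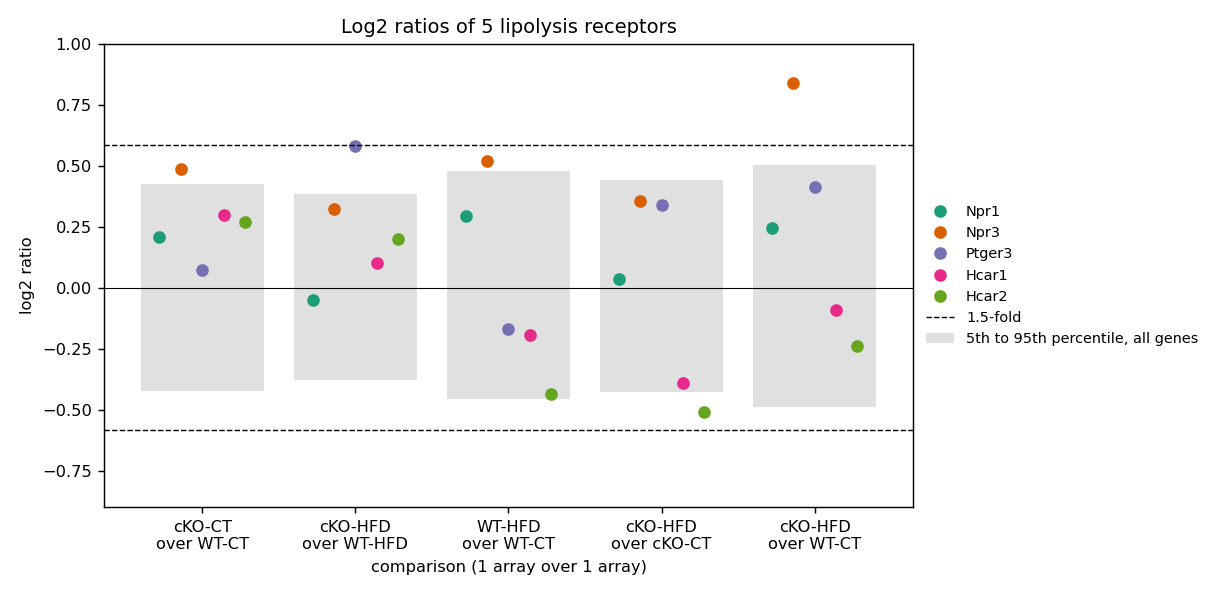
Log2 ratio (y axis) of 5 lipolysis receptors in 5 comparisons of 1 array with 1 array (x axis), with 1.5-fold as dashed lines and the 5th to 95th percentile of 19938 genes as grey bars. *Npr3* passes the upper line in cKO-HFD over WT-CT (0.84), *Ptger3* lies just under it in cKO-HFD over WT-HFD (0.581), and *Hcar1* and *Hcar2* lie below 0 in each comparison of HFD with CT.

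Over the 5 receptors the median log2 ratio between the CT arrays (cKO-CT over WT-CT) was 0.27, against a median of -0.005 over all genes. All 5 ratios were above 0. After cyclic loess all 5 were lower, from 0.43 for *Npr3* to -0.01 for *Ptger3*. The median for cKO-HFD over WT-HFD was 0.20 against 0.03, and 4 receptors were above 0. For WT-HFD over WT-CT it was -0.17 against -0.004, and for cKO-HFD over cKO-CT 0.03 against 0.02, with 2 and 3 receptors above 0. These medians rest on 5 genes and describe these arrays only. Among 10895 genes above background on all arrays the median range from the lowest to the highest array was 0.316, with quartiles of 0.210 and 0.462. The ranges of *Npr3* (0.84), *Hcar2* (0.71), *Ptger3* (0.58) and *Hcar1* (0.49) were above the upper quartile, and that of *Npr1* (0.29) was below the median.

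Genes around the receptors were read in 12 lists with 115 genes, of which 105 were measured. In cKO-CT over WT-CT 3 were higher and 2 lower, 2.86% and 1.90% of those measured, against 1.64% and 1.52% of all genes. In cKO-HFD over WT-HFD 4 were higher and 1 lower (3.81% and 0.952%, against 1.04% and 2.11% of all genes). In WT-HFD over WT-CT 3 were higher and 5 lower (2.86% and 4.76%, against 3.16% and 2.67%). In cKO-HFD over cKO-CT 6 were higher and 3 lower (5.71% and 2.86%, against 1.82% and 2.17%), but 3 of the 6 (*Glp1r*, *Mc4r* and *Ptgdr2*) were below background on both arrays. The median ratios were 0.05, 0.07, -0.01 and 0.01 in that order of comparisons. Where the dimmer of the levels compared was below background, a ratio has only a lower bound. This bound is given below as the brighter level over the background of the other array and written "at least". It takes both values as read and, with 1 array per group, has no error.

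Of 9 adenylyl cyclases, the enzymes that make cyclic AMP, *Adcy5* had a log2 level of 8.66 in cKO-HFD, 8.59 in WT-HFD, 8.34 in cKO-CT and 7.53 in WT-CT. WT-CT lay below the other three arrays. *Adcy5* was higher in cKO-CT (a log2 ratio of 0.80) and WT-HFD (1.06) than in WT-CT, while the ratio of cKO-HFD over WT-HFD was 0.07. Of 9 G protein genes, *Gnal*, an alpha subunit that stimulates adenylyl cyclase, was higher in cKO-HFD than in WT-HFD (6.08 and 5.31, at least 1.58-fold, the WT-HFD level being below background), and *Gnao1*, an alpha subunit of the inhibitory class, was lower in WT-HFD than in WT-CT (7.05 and 7.67, a log2 ratio of -0.62). Of 12 phosphodiesterases, which break down cyclic nucleotides, *Pde4b* was higher in WT-HFD than in WT-CT (6.22 and 5.60, a log2 ratio of 0.62), and none was called between the genotypes on either diet. Of 10 kinase A and kinase G genes, *Akap12*, an anchor for protein kinase A, was higher in cKO-CT than in WT-CT (7.75 and 7.12, a log2 ratio of 0.63, and 0.55 after cyclic loess). The mitochondrial anchor *Akap1* was lower in cKO-HFD than in cKO-CT (7.11 and 7.73, a log2 ratio of -0.62, and -0.58 after cyclic loess).

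Genes that switch receptors off were listed as 10, of which 9 were measured. *Rgs2*, a regulator that speeds the shut-off of G proteins, had a log2 level of 5.15 in cKO-HFD, 5.33 in WT-HFD, 5.46 in cKO-CT and 6.35 in WT-CT. It was lower in cKO-CT than in WT-CT (a log2 ratio of -0.89) and in WT-HFD than in WT-CT (at least 1.90-fold), and it was below background on both HFD arrays. *Grk3*, a kinase that phosphorylates activated receptors, had a log2 level of 5.46 in cKO-HFD, 5.59 in WT-HFD, 6.08 in cKO-CT and 6.51 in WT-CT, with a log2 ratio of -0.93 between the diets in WT. In cKO the HFD level was below background, and the bound of 0.584 on the log2 scale lay just under the size that was called. Both genes were highest on the WT-CT array, as was the sum of brown and beige markers given below. The part of those cells in the levels of *Rgs2* and *Grk3* was not tested.

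Of 13 other stimulatory receptors, *Vipr2*, a receptor for vasoactive intestinal peptide, had a log2 level of 5.89 in cKO-HFD, 4.81 in WT-HFD, 4.26 in cKO-CT and 4.41 in WT-CT, and was above background in cKO-HFD only. It was at least 1.39-fold higher in cKO-HFD than in WT-HFD, under the size that was called although the measured log2 ratio was 1.08, and at least 1.53-fold higher than in cKO-CT. *Sctr*, the secretin receptor, was lowest in cKO-HFD at 6.21, against 6.83 in WT-HFD and 7.06 in cKO-CT, with log2 ratios of -0.61 and -0.85. Of 11 other inhibitory and fatty acid receptors, *Ffar4*, a receptor for long-chain fatty acids, was lower in WT-HFD than in WT-CT (6.03 and 6.70, a log2 ratio of -0.67), and *Npy1r*, a receptor for neuropeptide Y, was higher in cKO-CT than in WT-CT (5.38 and 4.71, a log2 ratio of 0.67), but the WT-CT level was below background and the cKO-CT level was not above that of the WT-CT background, so no bound can be given. Of 5 adenosine genes, *Ada*, the adenosine deaminase, was higher in cKO-HFD than in WT-HFD (6.09 and 5.35, at least 1.60-fold) and than in cKO-CT (5.25, at least 1.76-fold), where both of the lower levels were below background. *Slc29a1*, a nucleoside transporter, was higher in WT-HFD than in WT-CT (7.41 and 6.79, a log2 ratio of 0.62).

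The 10 lipolysis effectors, the lipases and droplet proteins on which these receptors act and the carriers of the fatty acids released, had a median log2 ratio of 0.11 for cKO-CT over WT-CT, 0.17 for cKO-HFD over WT-HFD, -0.08 between the diets in WT and -0.01 in cKO. *Pnpla2*, the lipase that starts triglyceride breakdown, had a log2 level of 12.23 in cKO-HFD, 12.14 in WT-HFD, 12.38 in cKO-CT and 12.22 in WT-CT. *Lipe*, the hormone-sensitive lipase, had a log2 level of 12.22 in cKO-HFD, 12.17 in WT-HFD, 12.34 in cKO-CT and 12.25 in WT-CT. Neither lipase passed 1.5-fold in any comparison. *Fabp5*, a fatty acid-binding protein, was the 1 effector past 1.5-fold in these 4 comparisons, with a log2 level of 9.52 in cKO-HFD, 8.77 in WT-HFD, 9.03 in cKO-CT and 9.58 in WT-CT. Its log2 ratio was 0.75 for cKO-HFD over WT-HFD and -0.81 for WT-HFD over WT-CT.

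**Figure D3:**
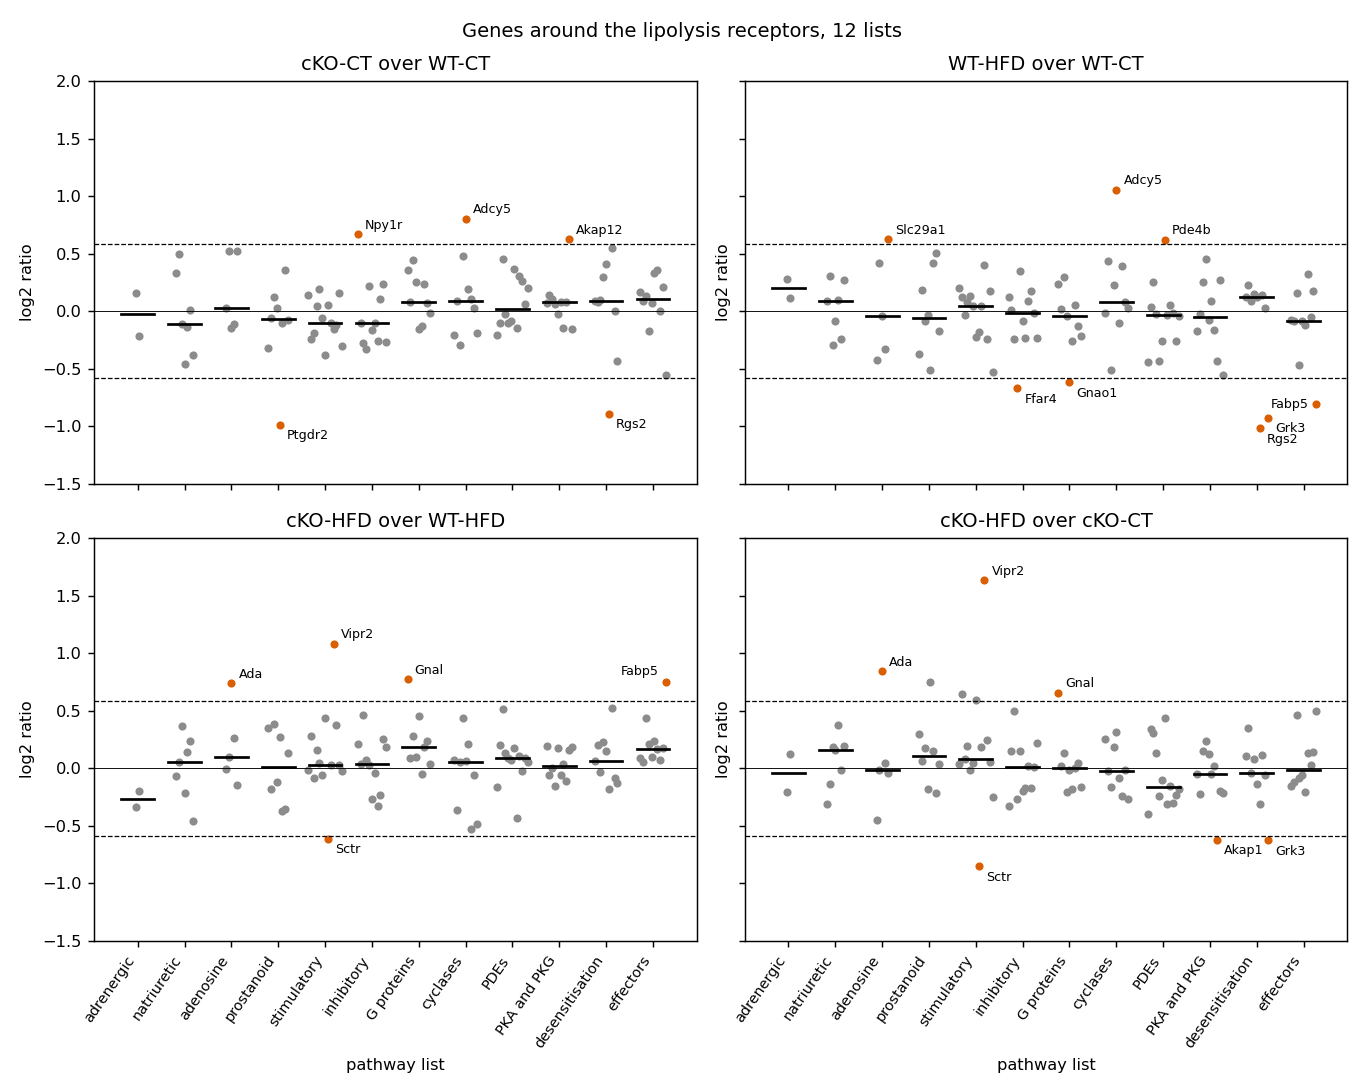
Log2 ratio (y axis) of 105 genes in 12 lists around the receptors (x axis) in 4 comparisons of 1 array with 1 array, with the list median as a bar and 1.5-fold as dashed lines. Genes past 1.5-fold are orange and named where at least 1 of the arrays compared was above background, as for *Vipr2* (1.63 as measured, over a level below background) in cKO-HFD over cKO-CT. The 3 grey points past the line there are *Glp1r*, *Mc4r* and *Ptgdr2*.

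In cKO-HFD over WT-CT 9 pathway genes were higher and 5 lower, 8.57% and 4.76% of those measured, against 3.36% and 3.41% of all genes. The higher genes included *Adcy5* (a log2 ratio of 1.12) and *Pde4b* (0.80), and *Mgll*, the monoglyceride lipase of the final step of lipolysis, had a log2 ratio of 0.59, and 0.55, under 1.5-fold, after cyclic loess. *Vipr2* and *Gnal*, both below background in WT-CT, were at least 1.42-fold and at least 1.62-fold higher, the bound of *Vipr2* being under 1.5-fold. The lower genes were *Sctr* (a log2 ratio of -0.80), *Pde1a* (-0.61) and *Ffar4* (-0.60), and *Grk3* and *Rgs2*, both below background in cKO-HFD, were at least 2.02-fold and at least 1.80-fold lower.

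Over all probe sets the arrays correlated with r of 0.979 to 0.986, and their medians were 5.55 to 5.60. The targeted gene *Napepld* stood at 7.94 in cKO-HFD, 8.01 in WT-HFD, 7.78 in cKO-CT and 8.31 in WT-CT, a log2 ratio of -0.06 between the genotypes on HFD and -0.53 on CT. After cyclic loess the ratio on CT was -0.62, past 1.5-fold. Whether its probes fall inside the floxed exons was not determined, so this level is no check of the labels. All 7 adipocyte markers measured were above background on all arrays. Pancreatic acinar markers had a summed log2 level of 8.44 to 8.63 in cKO-HFD, WT-HFD and cKO-CT and 10.53 in WT-CT, and brown and beige markers summed to 11.23 in cKO-HFD, 11.64 in WT-HFD, 12.69 in cKO-CT and 13.60 in WT-CT. The WT-CT array, on which *Npr3* and *Npr1* were lowest, thus also stood apart in acinar content and had the highest brown and beige sum. The part of either in the ratios over WT-CT was not tested.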

How the data were processed

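RNA from subcutaneous adipose tissue was hybridized to Affymetrix MoGene 1.0 ST arrays, 1 array per group. The authors deposited 1 RMA value per probe set and array, on a log2 scale (background correction, quantile normalization across arrays and summary of probes). The submitters' processing notes name Affymetrix Expression Console and RMA, and the methods name the RMA-Sketch procedure. Detection *P* values computed by the authors did not enter here. Quantile normalization forces arrays to a common distribution, so a shift of all genes together would not be seen.

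The platform annotation gave gene names, and symbols were updated through gene IDs to the RefSeq annotation of GRCm38.p6. Of 35556 probe sets, 21789 named 1 gene, 1621 several and 12146 none. Probe sets that name only 1 gene were averaged into its level. *Adrb1*, *Adrb3*, *Adra2a* and *Adora1* were not analysed here. Log2 ratios were called at 1.5-fold (0.585 on the log2 scale). With 1 array per group, ratios have no test, error or p-value, and the number of arrays limits the precision. Background was the 95th percentile of 1027 *Olfr* genes on each array. The calling step was tested on simulated data, with planted changes of 2-fold or more and the same noise at all levels. That test does not cover calls near 1.5-fold or near background.

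The members and the gene lists were chosen with earlier results of these data known. Genes named are the receptors, *Napepld*, pathway genes past 1.5-fold and above background on at least 1 of the arrays compared (up to 4 per list), the most abundant markers, and members of counts of 5 or fewer. *Pnpla2*, *Lipe* and *Npr2* were named outside this rule, after their values were seen. The rule asked for genes with a similar pattern only for receptors whose range was at least 1 log2 unit, which 0 receptors reached, so a range of 0.5 was set after the values were seen. The comparison of cKO-HFD with WT-CT and the difference between genotype ratios on the diets were also added then, as were lower bounds for ratios against a level below background. Counts of calls use the measured ratios. The results were recomputed with the brightest probe set of each gene, with probe sets of several names added for the receptors, with genes above the *Olfr* or the vomeronasal receptor background (167 genes), at 2-fold, after subtracting the all-gene median, and after cyclic loess (span 0.7, 3 iterations). The software was R 4.3.3 with limma 3.58.1 (cyclic loess), and matplotlib 3.10.9, pandas 2.3.3 and numpy 2.4.6 in Python 3.11.15.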

Additional observations from a re-analysis of the deposited data

Results flagged for a closer look

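Genotype ratios of opposite sign on the diets, each larger than the spread of ratios at its level, were read for a pair of pathway genes. *Fabp5*, a fatty acid-binding protein, had a log2 ratio of 0.75 for cKO-HFD over WT-HFD and -0.55 for cKO-CT over WT-CT, a difference of 1.31, and seen by diet its ratio was 0.50 in cKO and -0.81 in WT, the same difference of 1.31. The readings of *Ptgdr2*, a prostaglandin D2 receptor, were 0.27 for cKO-HFD over WT-HFD and -0.99 for cKO-CT over WT-CT, a difference of 1.26, and by diet 0.75 in cKO and -0.51 in WT, again 1.26. *Ptgdr2* was above the *Olfr* background only on the WT-CT array, so its ratios of 0.27 and 0.75 compare levels below background, which have no order, and no opposite change was measured for it. Neither difference was tested, as each rests on 4 arrays with 1 per group.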

How the results depend on the processing

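No paired analysis was possible because each group has 1 array and the titles carry no replicate numbers, and for the same reason no array could be left out of a group. Each receptor has 1 probe set and is above background, so 100 of 150 recomputed receptor ratios and 10 of 20 differences between genotype ratios could not move. The 50 ratios and 10 differences that centring and cyclic loess rescaled moved by less than the spread of ratios at their level (a robust SD over genes in 20 bins of level). The ratio of *Ptger3* for cKO-HFD over WT-HFD ran from 0.57 to 0.58 and stayed under 1.5-fold, and its ratio for cKO-CT over WT-CT ran from -0.01 after cyclic loess to 0.10. *Npr3* in cKO-HFD over WT-CT ran from 0.81 to 0.84, and at 2-fold the number of receptors higher in that comparison was 0. At 2-fold the pathway genes called higher and lower were 0 and 0 in cKO-CT over WT-CT, 1 and 0 in cKO-HFD over WT-HFD, 1 and 1 in WT-HFD over WT-CT, 1 and 0 in cKO-HFD over cKO-CT, and 3 and 2 where cKO-HFD was set against WT-CT. In cKO-HFD over cKO-CT the pathway genes called higher numbered 3 above the *Olfr* background, since *Glp1r*, *Mc4r* and *Ptgdr2* were dropped, and 3 after cyclic loess, for which the cause was not tested. The other 48 counts of pathway genes and 69 counts of receptors stayed within 1.5 times. A receptor count of 0 could rise only after centring or cyclic loess, so most receptor counts could not move. Cyclic loess took 4 of 38 named calls under 1.5-fold, which were *Akap12* in cKO-CT over WT-CT (0.55), *Gnal* and *Akap1* in cKO-HFD over cKO-CT (0.57 and -0.58) and *Mgll* in cKO-HFD over WT-CT (0.55). Levels of *Npy1r*, *Ptgdr2*, *Vipr2*, *Ada*, *Gnal*, *Rgs2* and *Grk3* were at or below the *Olfr* background on at least 1 array, where the arrays resolve least.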

Other observations

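Genes whose levels followed those of a receptor over the 4 arrays were sought among 5358 genes whose log2 level averaged 7 or more, by the Euclidean distance between profiles after subtracting the mean of each gene. For *Npr3* the 3 nearest were *Fads3* (distance 0.027 log2 units), a member of the fatty acid desaturase family, *Ltc4s* (0.0502), the leukotriene C4 synthase, and *Epn2* (0.0504), an epsin of clathrin-mediated endocytosis. *Fads3* had log2 levels of 11.49 in cKO-HFD, 11.19 in WT-HFD, 11.16 in cKO-CT and 10.64 in WT-CT. For *Ptger3* they were *Itga6* (0.0222), the integrin alpha 6 subunit, *H1f10* (0.0745), a linker histone, and *A530053G22Rik* (0.08). *Itga6* had log2 levels of 8.43 in cKO-HFD, 7.85 in WT-HFD and 8.11 in cKO-CT. For *Hcar2* they were *Rcl1* (0.109), *Arhgap26* (0.132) and *Parp6* (0.134). With 4 values per gene these are descriptions of these arrays only.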
